A study of Mus musculus with 6 samples.

Results

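The 34 genes described here encode proteins that build the mitotic spindle, attach chromosomes to it, time the exit from mitosis and divide the cell. They were chosen by name and function, with earlier results of these data known, and all 34 were measured among 19938 genes with a symbol of their own. They were read in mouse embryonic fibroblasts, primary cultures grown from embryos, that carried retroviruses for 3 reprogramming factors (Oct4, Sox2 and Klf4). RNA was taken on day 8 after infection on day 0, from cells labelled Foxd1+/+, Foxd1+/- or Foxd1-/-, with 2 arrays per genotype. All groups carried the same 3 factors, and uninfected cells were not analysed here. The titles call replicates 1 and 2 biological, but the labels give neither the design of the Foxd1 deletion nor whether the replicates came from separate embryos or cultures, so errors and p-values reflect only how these arrays varied.

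Cells enter mitosis when cyclins A and B activate the kinase Cdk1, which with the Aurora and Polo kinases drives chromosome condensation and spindle assembly. Kinetochores, protein plates on each centromere, catch spindle microtubules, and a checkpoint holds the cell until every chromosome is attached. The ubiquitin ligase APC/C, with Cdc20, then destroys cyclin B and the lock on sister chromatids, and the central spindle directs cytokinesis. Most of these genes are transcribed late in the cell cycle, and the MuvB complex with its partners represses them in resting cells and activates them in G2 and M phase through a promoter element called the CHR, often with CCAAT boxes bound by NF-Y nearby. In embryonic fibroblasts the level of these transcripts is widely read as a measure of the share of dividing cells, and early reprogramming is known for faster division. In a bulk RNA sample, fewer dividing cells and less of each transcript per dividing cell cannot be told apart, and this holds for every value below.

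Promoters were read because the members moved together from array to array, as shown further on. RefSeq promoter windows (mouse build GRCm38.p6, 250 bases before to 50 after each annotated start) were matched for 29 of the 34 genes, and none was matched for Incenp, Tpx2, Kif20a, Ccna2 and Aurkb. Of the 4 stretches printed first, each ends close before the start of a gene of the mitotic exit and chromosome machinery and holds both motifs close together. Letters run 5′ to 3′ on the gene's own strand, and capitals mark the CHR element (TTTGAA, or TTCAAA where it reads on the opposite strand) and the CCAAT box (CCAAT, or ATTGG on the opposite strand).
Top2a (chr11:99024190-99024299, minus strand): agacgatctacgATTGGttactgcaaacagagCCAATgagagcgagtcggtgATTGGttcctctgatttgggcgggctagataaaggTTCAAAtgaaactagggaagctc
Cdk1 (chr10:69352913-69353022, minus strand): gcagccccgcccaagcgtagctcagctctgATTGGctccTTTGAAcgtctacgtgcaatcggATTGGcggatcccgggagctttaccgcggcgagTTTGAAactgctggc
Cdc20 (chr4:118437344-118437453, minus strand): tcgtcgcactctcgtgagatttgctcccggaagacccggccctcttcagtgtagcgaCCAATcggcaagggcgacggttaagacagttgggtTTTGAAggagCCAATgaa
Ube2c (chr2:164769819-164769928, plus strand): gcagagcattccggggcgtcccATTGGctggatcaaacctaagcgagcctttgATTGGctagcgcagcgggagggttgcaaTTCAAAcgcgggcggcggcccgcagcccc
In Top2a, Cdc20 and Ube2c a single CHR element stood within 30 bases before the start, with CCAAT boxes around or upstream of it, and Cdk1 carried 2 CHR elements in its stretch. In the next 6 genes, each from a different role, the element lay across or just after the start, and 26 bases around it are printed, with only the CHR element in capitals.
Ccnb2 (chr9:70421535-70421560, minus strand): cggcgcggtaTTTGAAtcgcggaccg
Aurka (chr2:172370523-172370548, minus strand): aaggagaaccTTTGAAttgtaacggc
Ttk (chr9:83834686-83834711, plus strand): gcggggaaatTTCAAAcgtgtttccg
Cenpf (chr1:189688069-189688094, minus strand): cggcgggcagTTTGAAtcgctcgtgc
Kif23 (chr9:61946782-61946807, minus strand): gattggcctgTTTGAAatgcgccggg
Prc1 (chr7:80294436-80294461, plus strand): tctggctcggTTTGAAttccgcgggg
The letters TTTGAA were found on either strand in 22 of 29 members' windows (75.9%), against 17.3% of the windows of 15614 tested genes and 13.9% of those of genes at least as bright as the dimmest member. Of the nearest copies in these 22, 8 lay before the start, 13 after it and 1 across it. The window ends 50 bases after the start, so copies after it could not lie farther away. Within 50 bases on either side lay 20 of the 22, the exceptions being Mki67 (-98) and Kif2c (-103), both before the start. The share of other genes with a copy so near was not counted. CCAAT on either strand was found in 20 members (69.0%), against 41.7% of tested genes, and both motifs in 18 members (62.1%), against 6.89%. The CHR variant TTTAAA was found in 8 members (27.6%), against 13.4%. Among gene lists read further on, TTTGAA was found in 53.0% of 66 further mitosis genes with a window. In 35 DNA replication genes with a window, a list also mostly lowest on Foxd1-/- replicate 2, it was found in 14.3%. CCAAT was found in 71.2% and 60.0% of these lists, so its share was not particular to the members. Such matches describe letters in a window of 300 bases, and binding was not measured here.

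**Figure D1:**
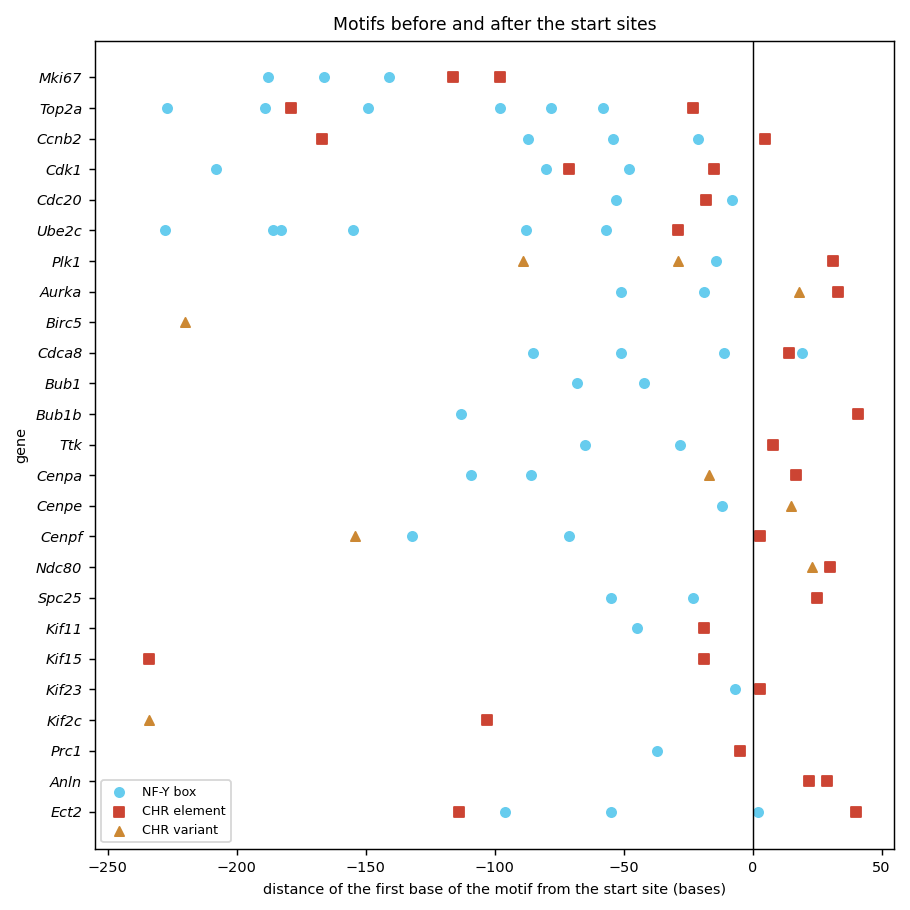
Position of each motif match, as the distance in bases of its first base from the annotated start (vertical line), in the members whose 300-base window holds at least 1 match; each row is a gene, circles are CCAAT letters (the NF-Y box), squares CHR elements (TTTGAA) and triangles the CHR variant (TTTAAA). Most CHR elements sit within 50 bases of the start, with CCAAT boxes mainly upstream. The window holds 250 bases before the start and only 50 after it, which limits where matches can fall.

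The pattern over the arrays was shared by all 34 genes. Every member had its lowest intensity on Foxd1-/- replicate 2, which was the lowest of the 6 arrays for 22.5% of all genes and for 22.9% of genes at least as bright as the dimmest member. Averaged over the members, the array's log2 value lay at -0.52 from each gene's own 6-array mean (SD over the 34 genes 0.08). The other arrays labelled replicate 2 averaged -0.06 for Foxd1+/+ and -0.02 for Foxd1+/-. The arrays labelled replicate 1 averaged 0.25, 0.21 and 0.13 for Foxd1+/+, Foxd1+/- and Foxd1-/-. In 30 of 34 genes every replicate 2 array read below every replicate 1 array and Foxd1-/- replicate 2 was lowest of all, an order found for 7.14% of all genes and 11.4% of those at least as bright as the dimmest member (a separation of the numbers alone, for 15.8% of all genes). The differences were small: the highest array exceeded the lowest by a median of 1.73-fold, from 1.5-fold for Cenpf to 2.11-fold for Bub1, and 33 of 34 members stayed within a factor of 2. Foxd1+/+ replicate 1 was the highest array in 24 members and Foxd1+/- replicate 1 in 9.

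**Figure D2:**
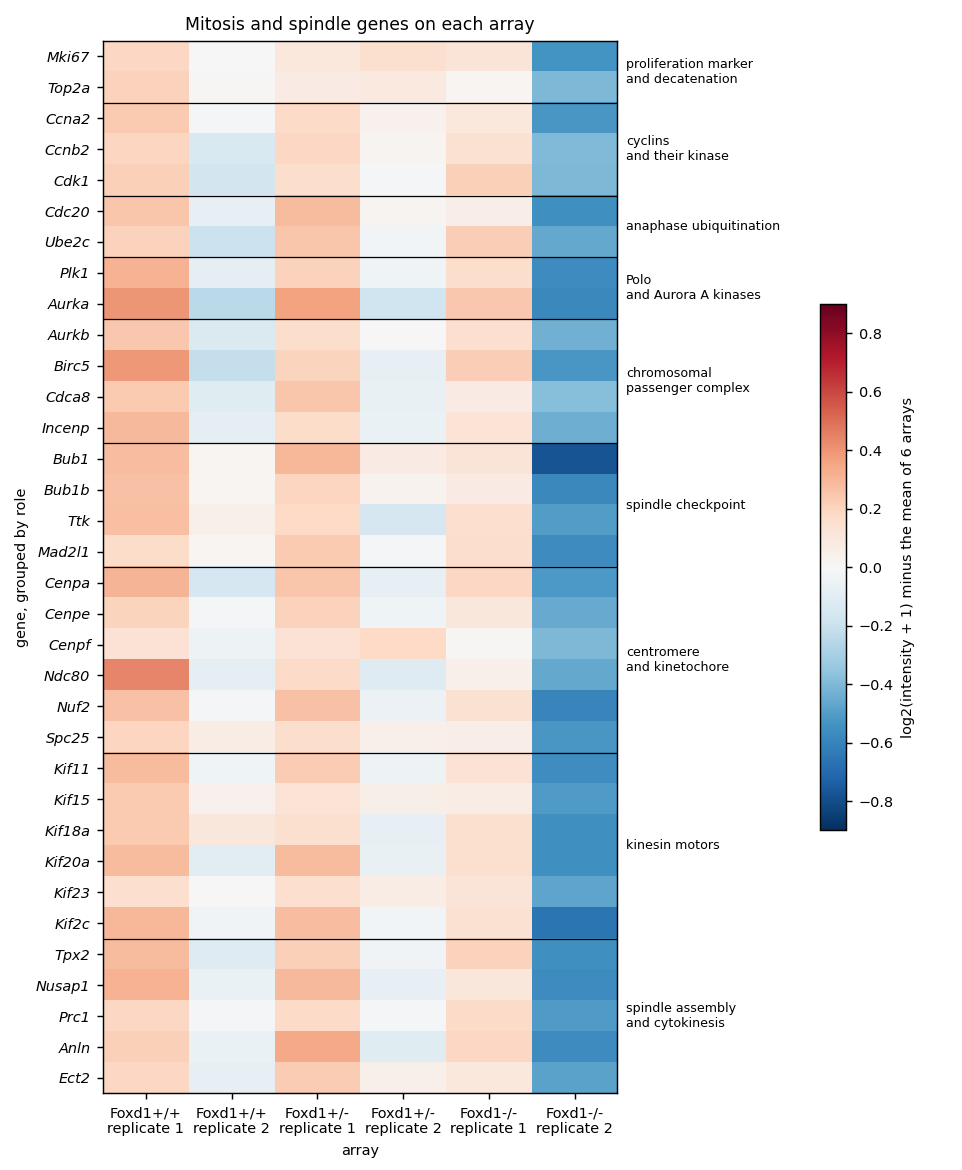
Each row is a gene, grouped by role, and each column an array; colour gives log2(intensity + 1) minus the gene's mean over the 6 arrays. The column of Foxd1-/- replicate 2 is blue for all 34 genes, and the column of Foxd1-/- replicate 1 is nearer to the other replicate 1 columns, at a mean of 0.13 against 0.25 and 0.21.

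Foxd1 itself, a forkhead transcription factor, was read to check the labels. Its intensity was 1907 and 1169 on the Foxd1+/+ arrays (replicate 1 first, as in all pairs of values below), 1014 and 2074 on Foxd1+/-, and 189 and 213 on Foxd1-/-. Both arrays labelled Foxd1-/- were low, with a log2 difference from Foxd1+/+ of -2.89 ± 0.41 (SE), while the arrays labelled Foxd1+/- were not between the other genotypes: their replicate 2 gave the highest value of all. The direction of any Foxd1+/- comparison therefore rests on the label alone. Median intensity per array lay between 76.5 and 79.6 over all 28856 probe sets, with or without a gene symbol, so the arrays had similar overall levels. Among 12 listed fibroblast markers, the collagen gene Col1a2 read from 5345 to 7098 and the filament gene Vim from 7254 to 8287 over the 6 arrays. Both were named after their values were seen, so they do not test the fibroblast label.

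Across genotypes, all 34 members averaged lower in Foxd1-/- than in Foxd1+/+, where 48.2% of all genes did so. The median log2 difference was -0.30 over the members (from -0.48 for Bub1 to -0.12 for Cdk1) and 0.00 over all genes, on the log2(intensity + 1) scale used throughout. No member passed limma's test: 0 of 34 were called at a Benjamini-Hochberg adjusted p under 0.05 over all 19938 genes, and 0 of 34 had an unadjusted p under 0.05 with the lower direction, as 0.998% of all genes did. That fit holds no replicate number. With the number added as a block, 18 members were lower at an unadjusted limma p under 0.05 (3.27% of all genes), and none passed adjustment. Over all genes limma called 0 without the block (0.0% lower), with 421 at an unadjusted p under 0.05. Foxd1 itself, at -2.89, was not called either, so the lack of a call says little about the members' differences. The Foxd1-/- arrays did not overlap the Foxd1+/+ arrays for 1 member, Spc25, against 12.1% of all genes in that direction. Without Foxd1-/- replicate 2 the median was 0.02, with 13 members lower and 21 higher, Ube2c the most at 0.21, and of the members given by array below Mki67, Cdk1, Plk1, Aurka, Aurkb, Incenp, Mad2l1, Nuf2, Kif23 and Ect2 also turned positive. That fit sets Foxd1-/- replicate 1 against arrays of both numbers, and against Foxd1+/+ replicate 1 alone the members' median was -0.13, with 33 lower. Leaving out Foxd1+/+ replicate 1 gave a median of -0.16 with 29 lower, and leaving out Foxd1-/- replicate 1, which keeps only the array that was lowest for every member, gave -0.64.

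Against Foxd1+/-, which shares the Foxd1-/- arrays with the comparison above, all 34 members again averaged lower (51.4% of all genes), with a median of -0.29 and a range from -0.52 to -0.17. None of the 34 was called by limma or had an unadjusted p under 0.05 (1.19% of all genes in the lower direction, 460 genes in both). With the replicate block 13 members were lower at an unadjusted limma p under 0.05 (3.15% of all genes), and none passed adjustment. The arrays did not overlap for 2 members, Top2a and Cenpf, against 13.6% of all genes. Without Foxd1-/- replicate 2 the median was 0.03, with 12 lower and 22 higher, and without Foxd1+/- replicate 1 it was -0.16. These fits also set unequal numbers against each other, and Foxd1-/- replicate 1 against Foxd1+/- replicate 1 alone gave -0.08, with 31 lower. Foxd1+/- against Foxd1+/+ split the members evenly, with 17 of 34 lower (48.4% of all genes) and a median of 0.00 (range -0.15 to 0.11). No member's arrays were separated in either direction, where 8.0% of all genes were separated downwards and 12.3% upwards, and limma called 0 genes, with 193 at an unadjusted p under 0.05 (0.251% of all genes in the lower direction, and no member). With single arrays left out, 2 members were lower without Foxd1+/+ replicate 1, 33 without Foxd1+/+ replicate 2, 32 without Foxd1+/- replicate 1 and 4 without Foxd1+/- replicate 2. Each of these fits leaves the 2 genotypes unequal in replicate number, so these counts also hold the step between numbers given below.

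Comparing arrays of the same number separates the Foxd1-/- difference into its 2 parts. Among arrays numbered 1, Foxd1-/- lay below Foxd1+/+ by little: the median log2 difference was -0.13, with 33 of 34 genes below 0 (46.3% of all genes). Among arrays numbered 2 the median was -0.47, with 34 below 0 (50.1% of all genes), and it was the more negative in 33 members, Ndc80 being the exception. Against Foxd1+/- the medians were -0.08 (31 genes below 0, 48.4% of all genes) and -0.49 (34 genes, 52.1%). Foxd1+/- lay below Foxd1+/+ in 25 members among arrays numbered 1 (48.8% of all genes) and in 11 among arrays numbered 2 (47.8%), with medians of -0.04 and 0.04. These are differences of single arrays and have no test. How far a member lay below Foxd1+/+ in the first pair said little about how far it did in the second. Across the 34 genes, which are not independent replicates and share arrays' technical effects, Pearson's r was 0.13 and Spearman's rho 0.17. Over all genes they were 0.35 and 0.21.

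**Figure D3:**
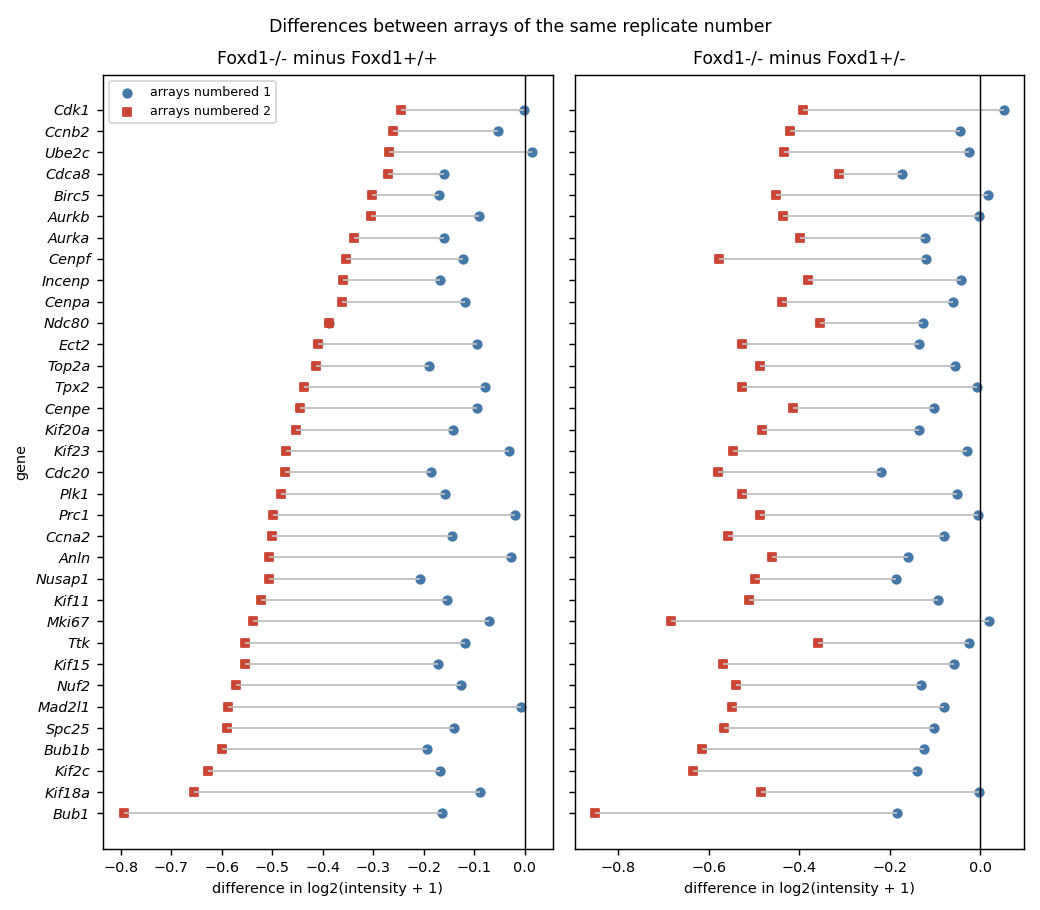
Log2 difference of Foxd1-/- from Foxd1+/+ (left) and from Foxd1+/- (right) for each gene, between arrays numbered 1 (circles) and between arrays numbered 2 (squares), with a line joining the pair. Squares lie left of circles for nearly all genes, and the exception on the left is Ndc80, where the pair coincides at -0.39.

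Replicate 2 against replicate 1, with genotype in the limma fit, gave the comparison that members did pass. All 34 were lower in replicate 2 (50.7% of all genes), with a median log2 difference of -0.39 (from -0.67 to -0.18), and 9 fell at an adjusted p under 0.05 (4.0% of all genes), while none was called higher. Those 9 were Aurka, Cdca8, Ndc80, Cenpa, Nusap1, Kif20a, Birc5, Incenp and Ube2c. The count depended on the setting: 3 (Aurka, Cdca8 and Ndc80) were called with an offset of 32 before the log, 4 with no genotype term, and 21 with only the brighter genes or with limma's trend and robust options, so the calls and near misses given by gene below hold for the setting used. At an unadjusted p under 0.05, 29 members were lower, against 12.2% of all genes. The labels call the numbers biological replicates and do not say whether a number was shared between genotypes as a culture, day or batch, and over all genes limma called 798 lower and 966 higher, together 8.85%. Without either Foxd1-/- array, which leaves that genotype out of the difference, limma called 0 of 34 members and 0 genes at all, with at least 26 members at an unadjusted p under 0.05 in each leave-one-out fit. Without either Foxd1+/+ array 2 members were called, and without either Foxd1+/- array 14.

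The size of that step was not the same in the 3 genotypes. From replicate 1 to replicate 2 the members differed by a median of -0.30 in Foxd1+/+ (34 of 34 below 0, 51.5% of all genes) and -0.24 in Foxd1+/- (31 of 34, 47.0%). In Foxd1-/- the median was -0.66 (34 of 34, 53.0%), with a range from -0.89 to -0.41. The Foxd1-/- step exceeded the mean of the other steps in all 34 genes (52.7% of all genes), by a median of -0.37, and exceeded each of them in 33. With 1 array for each genotype and number, this difference between genotypes was not tested.

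**Figure D4:**
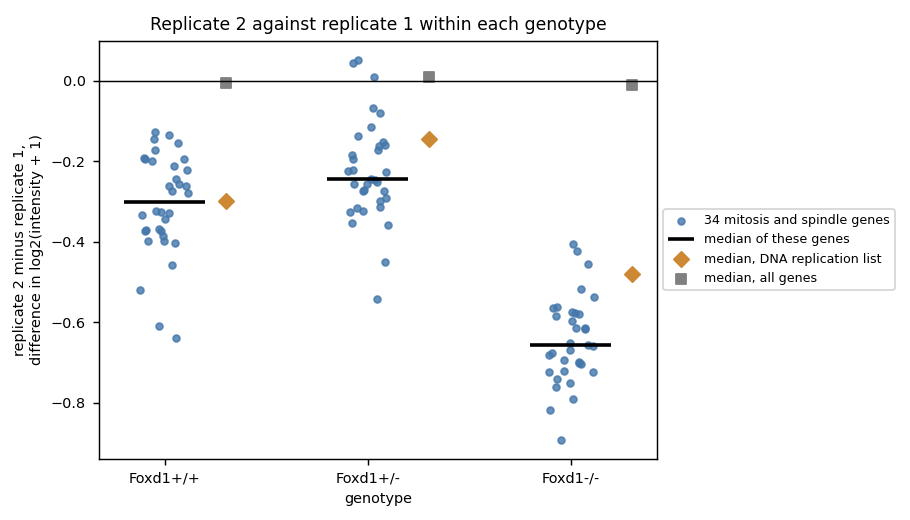
Replicate 2 minus replicate 1 within each genotype, in log2(intensity + 1); each point is 1 of the 34 genes, spread sideways for legibility, the black line is their median, the diamond the median of the DNA replication list and the grey square that of all genes. The members' medians are -0.30, -0.24 and -0.66, and the all-gene medians lie near 0.

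The first role holds the general markers of dividing cells. Mki67, the Ki-67 antigen that coats mitotic chromosomes, read 646 and 566 for Foxd1+/+, 607 and 626 for Foxd1+/- and 615 and 390 for Foxd1-/-. A single array, Foxd1-/- replicate 2, stood below the rest, and the groups overlapped, with a difference between Foxd1-/- and Foxd1+/+ of -0.30 ± 0.23 (log2 ± SE, here and below). The SEs of genotype differences come from the fit without the replicate number, so the step between numbers counts in them. Top2a, the topoisomerase that untangles sister chromatids, read 1176 and 1025, 1072 and 1079, and 1032 and 770 in the same order. Foxd1-/- replicate 1 was just above Foxd1+/+ replicate 2 and below both Foxd1+/- arrays, and the differences were -0.30 ± 0.16 from Foxd1+/+ and -0.27 ± 0.16 from Foxd1+/-. Neither gene was called by limma between replicate numbers, where the adjusted p was 0.33 for Mki67 and 0.254 for Top2a. Top2a alone had a further probe set, which read between 20.9 and 21.7 on all arrays, close to the lowest intensity of 19.5.

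Among the drivers of mitotic entry, Ccna2 (cyclin A2) read 1305 and 1091 for Foxd1+/+, 1250 and 1136 for Foxd1+/- and 1181 and 771 for Foxd1-/-. Its Foxd1-/- replicate 1 value lay between those of the other genotypes' arrays, and the difference from Foxd1+/+ was -0.32 ± 0.23. Cdk1, the kinase the cyclins activate, gave 731 and 564, 705 and 625, and 731 and 476. Its replicate 1 arrays were level in Foxd1+/+ and Foxd1-/-, so that Cdk1 had the smallest Foxd1-/- difference of all members, at -0.12 ± 0.25. Ccnb2 (cyclin B2) differed by -0.16 ± 0.22. Replicate 2 against replicate 1 was close to but not past limma's threshold for Ccnb2 (adjusted p = 0.0743) and Cdk1 (0.0747), with differences of -0.34 ± 0.08 and -0.39 ± 0.09.

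Of the proteins of anaphase ubiquitination, Cdc20 is the APC/C activator that the checkpoint restrains, and it read 289 and 231 for Foxd1+/+, 297 and 248 for Foxd1+/- and 254 and 166 for Foxd1-/-. The replicate 1 arrays were above the replicate 2 arrays in every genotype, with Foxd1-/- lowest within each number, and the genotype difference was -0.33 ± 0.24 from Foxd1+/+ and -0.40 ± 0.24 from Foxd1+/-. Ube2c, the ubiquitin-conjugating enzyme of the APC/C, gave 331 and 251, 341 and 282, and 335 and 208. Its replicate 1 arrays were nearly level, and the genotype difference was -0.13 ± 0.28, while replicate 2 fell by 0.45 ± 0.09 against replicate 1 (limma adjusted p = 0.0489).

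Plk1, the Polo kinase that acts at centrosomes and kinetochores, read 908 and 689 for Foxd1+/+, 843 and 711 for Foxd1+/- and 814 and 493 for Foxd1-/-. Foxd1-/- was lowest within each replicate number, but its replicate 1 exceeded both other replicate 2 arrays, and the difference was -0.32 ± 0.28. Aurka, the Aurora kinase of spindle poles, gave 554 and 355, 540 and 371, and 496 and 281. Here the replicate number separated the arrays most clearly: replicate 2 minus replicate 1 was -0.64, -0.54 and -0.82 in Foxd1+/+, Foxd1+/- and Foxd1-/-, and over the 3 genotypes Aurka fell by 0.67 ± 0.07 (limma adjusted p = 0.0119), the most among the members. The genotype difference for Aurka was -0.25 ± 0.38, with an SE larger than the difference. The replicate step of Aurka counts in this SE. Among arrays of the same number, Foxd1-/- minus Foxd1+/+ was -0.16 for arrays numbered 1 and -0.34 for arrays numbered 2.

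The chromosomal passenger complex corrects faulty attachments and moves to the central spindle in anaphase. Its kinase Aurkb read 594 and 459 for Foxd1+/+, 559 and 503 for Foxd1+/- and 558 and 372 for Foxd1-/-, and its scaffold Incenp 446 and 344, 409 and 349, and 397 and 268. For both, Foxd1-/- replicate 1 lay above the other genotypes' replicate 2 arrays, and the differences from Foxd1+/+ were -0.20 ± 0.23 for Aurkb and -0.26 ± 0.24 for Incenp. The targeting subunits Birc5 (survivin) and Cdca8 (borealin) differed by -0.24 ± 0.33 and -0.21 ± 0.22. Between replicate numbers Incenp, Birc5 and Cdca8 fell, by 0.39 ± 0.08, 0.54 ± 0.10 and 0.37 ± 0.05 (limma adjusted p = 0.0482, 0.0422 and 0.0226), while Aurkb missed the threshold at -0.37 ± 0.09 (limma adjusted p = 0.0792).

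Among the spindle checkpoint genes was the member with the most negative genotype difference. Bub1, a kinase that recruits checkpoint proteins to kinetochores, read 478 and 399 for Foxd1+/+, 485 and 414 for Foxd1+/- and 426 and 229 for Foxd1-/-. Foxd1-/- replicate 2 stood far below the rest, 1.86-fold under its own replicate 1, which itself lay above both other replicate 2 arrays. The difference was -0.48 ± 0.31 from Foxd1+/+ and -0.52 ± 0.31 from Foxd1+/-, the most negative of the 34 in both comparisons, and neither was called. Mad2l1 (Mad2), which sequesters Cdc20, gave 846 and 764, 889 and 744, and 841 and 509, so that its replicate 1 arrays were level in Foxd1+/+ and Foxd1-/- and the difference of -0.30 ± 0.26 lay almost wholly between the arrays numbered 2. The pseudokinase Bub1b (BubR1) and the kinase Ttk (Mps1) differed by -0.40 ± 0.24 and -0.34 ± 0.25. Of the 4 genes, none was called between replicate numbers, where limma adjusted p ran from 0.0726 for Ttk to 0.141 for Mad2l1.

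At the centromere and kinetochore, Nuf2 and Ndc80 are partners in the complex that grips microtubule ends. Nuf2 read 670 and 552 for Foxd1+/+, 672 and 540 for Foxd1+/- and 614 and 371 for Foxd1-/-, with a difference of -0.35 ± 0.28. Ndc80 gave 227 and 158, 189 and 154, and 173 and 121. Foxd1+/+ replicate 1 was high as well as Foxd1-/- replicate 2 low, so that Ndc80 differed by -0.39 in both same-number pairs and by -0.39 ± 0.26 in the fit, and by -0.15 ± 0.26 between Foxd1+/- and Foxd1+/+. Between replicate numbers Ndc80 fell by 0.44 ± 0.06 (limma adjusted p = 0.0257), and Nuf2 missed the threshold at -0.44 ± 0.10 (limma adjusted p = 0.0694). Cenpf, a large protein of the outer kinetochore, read 214 and 190, 214 and 222, and 197 and 148. Both Foxd1-/- arrays lay below both Foxd1+/- arrays, and the differences were -0.35 ± 0.15 from Foxd1+/- and -0.24 ± 0.15 from Foxd1+/+. Spc25, a further subunit of the Ndc80 complex, was the member whose Foxd1-/- arrays (365 and 244) lay below both Foxd1+/+ arrays (402 and 368), narrowly for replicate 1, with a difference of -0.37 ± 0.20. Cenpa, the centromeric histone, and Cenpe, a kinetochore motor, differed by -0.24 ± 0.30 and -0.27 ± 0.22, and Cenpa fell by 0.50 ± 0.08 between replicate numbers (limma adjusted p = 0.0342).

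Kinesins move chromosomes and slide microtubules. Kif23, the motor of the centralspindlin complex that positions the cleavage furrow, read 672 and 604 for Foxd1+/+, 672 and 636 for Foxd1+/- and 658 and 435 for Foxd1-/-. Apart from the last array its values were nearly level, and the difference was -0.25 ± 0.21. Kif2c (MCAK), which takes microtubule ends apart to release wrong attachments, gave 573 and 455, 563 and 458, and 510 and 294. All replicate 2 arrays lay below all replicate 1 arrays, and the genotype difference was -0.40 ± 0.30. Kif11 (Eg5), which pushes spindle poles apart, its helper Kif15, the chromosome-aligning Kif18a and the cytokinesis motor Kif20a differed by -0.34 ± 0.27, -0.36 ± 0.20, -0.37 ± 0.25 and -0.30 ± 0.29. Kif20a fell between replicate numbers, by 0.48 ± 0.08 (limma adjusted p = 0.0366), and was the only one of the 6 motors that passed there.

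In spindle assembly and cytokinesis, Ect2, which activates RhoA to build the contractile ring, read 862 and 719 for Foxd1+/+, 887 and 780 for Foxd1+/- and 807 and 541 for Foxd1-/-. Nusap1, which bundles spindle microtubules, gave 364 and 281, 359 and 279, and 315 and 198. In both, Foxd1-/- replicate 1 lay above the other replicate 2 arrays, and the differences from Foxd1+/+ were -0.25 ± 0.22 and -0.36 ± 0.28. Tpx2, the activator of Aurka, the anaphase bundler Prc1 and the ring scaffold Anln differed by -0.26 ± 0.29, -0.26 ± 0.24 and -0.27 ± 0.30. Nusap1 fell between replicate numbers, by 0.47 ± 0.08 (limma adjusted p = 0.0342), and Anln narrowly missed at -0.49 ± 0.10 (limma adjusted p = 0.0515). By role, with no test between roles, the median Foxd1-/- difference from Foxd1+/+ ran from -0.16 for the cyclins and their kinase to -0.37 for the checkpoint genes, and the Foxd1-/- replicate step from -0.54 for the proliferation markers to -0.77 for Plk1 and Aurka.

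Other genes of the cell cycle were read from fixed lists. Of 75 further mitosis genes measured, 70 averaged lower in Foxd1-/- than in Foxd1+/+ (48.2% of all genes), with a median log2 difference of -0.23. In 68 of them the lowest value was on Foxd1-/- replicate 2 (22.5% of all genes). Between replicate numbers limma called 17 of the 75 lower (4.0% of all genes) and 0 higher. Among the 17 were Nek2, a centrosome kinase (-0.52 ± 0.06, limma adjusted p = 0.0165), and Hmmr, a spindle pole protein (-0.58 ± 0.08, limma adjusted p = 0.0231). Of 43 DNA replication genes, which peak earlier in the cycle, 42 averaged lower in Foxd1-/-, with a median of -0.16, and 38 were lowest on Foxd1-/- replicate 2 (the same shares of all genes apply). Limma called 13 of the 43 lower between replicate numbers and 0 higher, among them Rrm2, a subunit of ribonucleotide reductase, at -0.61 ± 0.12 (adjusted p = 0.0463). Neither list had a gene called between genotypes. Rrm1, the partner of Rrm2 and the replication gene with the smallest unadjusted p there, read 1947 and 2087, 2032 and 1868, and 1720 and 1420. Both its Foxd1-/- arrays lay below the other 4, with a difference of -0.37 ± 0.11. The same held for Depdc1b, a mitotic gene and the one of the 75 with the smallest unadjusted p, which read 115 and 115, 106 and 114, and 100 and 94.9, a difference of -0.24 ± 0.06. At an unadjusted limma p under 0.05, 3 of the 75 and 1 of the 43 were lower than in Foxd1+/+, against 0.998% of all genes.

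A list of cell cycle regulators showed a smaller median difference between replicate numbers, at -0.10 against -0.39 for the members. Of 22 genes for MuvB subunits, E2F and Rb proteins, NF-Y, B-Myb and FoxM1, 16 averaged lower in Foxd1-/- (48.2% of all genes), with a median of -0.06. On Foxd1-/- replicate 2, 10 of the 22 were lowest (22.5% of all genes). Foxm1, a forkhead activator of G2 and M genes, read 394 and 395 for Foxd1+/+, 416 and 353 for Foxd1+/- and 374 and 289 for Foxd1-/-, a difference of -0.26 ± 0.15. Mybl2 (B-Myb), which joins MuvB to activate these genes, gave 725 and 502, 687 and 495, and 711 and 443. Mybl2 was split by replicate number and not by genotype, with a genotype difference of -0.10 ± 0.32 and a fall of 0.56 ± 0.06 in replicate 2 (limma adjusted p = 0.0129). The repressor E2f8 was the other regulator called, so 2 of 22 were called lower, against 4.0% of all genes. Of 12 cell cycle inhibitors and p53 targets measured, limma called 3 higher and 1 lower in replicate 2, against 8.85% of all genes called in either direction. Cdkn1c rose by 0.59 ± 0.06, Cdkn2a by 0.46 ± 0.04 and Sesn2 by 0.30 ± 0.06, and Cdkn2d fell by 0.47 ± 0.07 (limma adjusted p = 0.0125, 0.0103, 0.0465 and 0.0285). Cdkn1a and Trp53, also listed, were not measured. Cdkn2a, which encodes p16 and p19Arf, read 215 and 299, 217 and 298, and 217 and 296, so that all 3 genotypes shared its step and none stood apart. Of 8 genes for G1 cyclins, their kinases and Myc proteins, 6 averaged lower in Foxd1-/- (48.2% of all genes), with a median of -0.13.

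Within the members, the promoter letters did not separate the values. The 22 with TTTGAA had a median Foxd1-/- replicate step of -0.63 and a median difference from Foxd1+/+ of -0.28, and the 7 with a window but without it -0.72 and -0.35. Among other genes at least as bright as the dimmest member, the 401 with both TTTGAA and CCAAT had a median Foxd1-/- difference from Foxd1+/+ of -0.03 with 59.1% lower, and all 1006 with TTTGAA -0.0079 with 53.2% lower, against 0.0077 and 47.1% for the 6361 without it. Their Foxd1-/- replicate step was below 0 in 57.4%, 50.8% and 50.8%. Genes with these letters include known cell cycle genes, so the groups are not independent of the lists above.

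Other gene groups also differed on the same arrays. The summed intensity of 12 fibroblast markers, all measured, ran from 29944 to 36873 in Foxd1+/+, 31412 to 35299 in Foxd1+/- and 34261 to 39922 in Foxd1-/-, highest on Foxd1-/- replicate 2. That of 12 pluripotent cell markers was 4569 and 2237, 3246 and 2992, and 3446 and 2245, lower on each replicate 2 array. Of 7 interferon response genes, 7 averaged higher in Foxd1-/- than in Foxd1+/+ (51.8% of all genes). Their sums were 974 and 1626, 807 and 3199, and 1789 and 4565, again highest on Foxd1-/- replicate 2. Limma called 4 fibroblast, 3 interferon and 2 endothelial genes higher and 4 pluripotent cell and 2 macrophage genes lower in replicate 2. Over all 19938 genes it called 966 higher and 798 lower (4.0%) there. The 2 macrophage genes went against their list, of which 10 of 13 were higher in replicate 2, with a median of 0.06. Limma called 0 of any of these lists between genotypes. The sums of 13 macrophage markers were 1950 and 2144, 2234 and 2010, and 1521 and 1673, and those of 7 endothelial markers lay between 1357 and 1519, and neither list had its lowest or highest sum on that array. Of the 13 macrophage markers 12 averaged lower in Foxd1-/- than in each other genotype (48.2% and 51.4% of all genes). The medians were -0.21 from Foxd1+/+ and -0.31 from Foxd1+/-. There 1 and 4 were lower at an unadjusted limma p under 0.05, against 0.998% and 1.19% of all genes. The part of these groups in the members' low values was not tested.

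**Figure D5:**
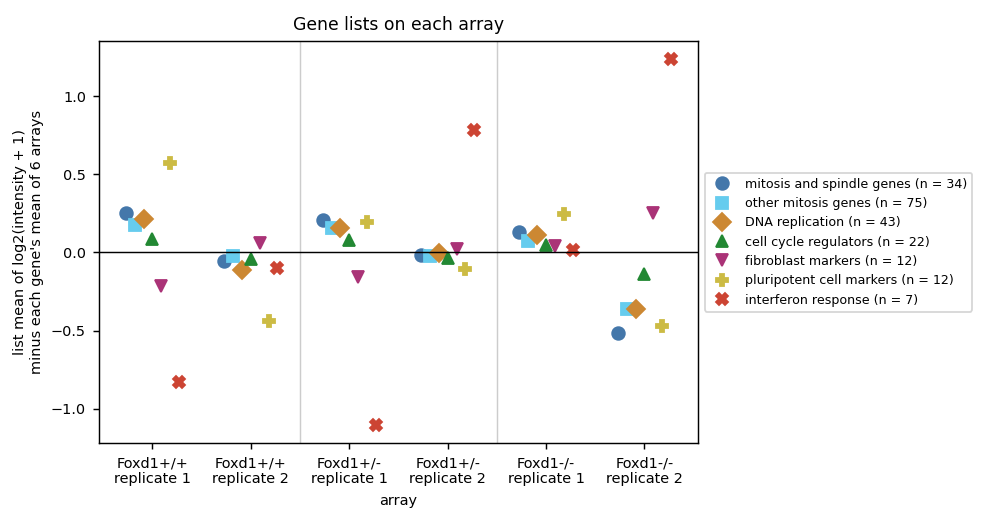
Mean over each gene list of log2(intensity + 1) minus each gene's 6-array mean, for the 6 arrays; markers are shifted sideways for legibility. On Foxd1-/- replicate 2 the mitosis and spindle genes average -0.52, the further mitosis genes and the DNA replication genes -0.36 each, the fibroblast markers 0.25 and the interferon genes 1.24.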

How the data were processed

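The labels assign each of the 6 arrays to a genotype and a replicate number by its title. Culture medium held 10% FBS, per the labels' protocols, and 300 ng of total RNA was made into biotin-labelled target for Affymetrix whole transcript arrays. The authors deposited 1 table of linear intensity values for 28856 probe sets; how background was corrected and arrays were normalized is not given in the sources consulted here, and no detection call was used. Of the probe sets, 21789 had 1 gene symbol in the platform annotation, 1621 several and 5446 none listed; 21698 identifiers matched RefSeq's gene table (GRCm38.p6), which changed 0 names. For 999 genes with several such probe sets the brightest was kept, which left 19938 genes. No 2 arrays held identical values.

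Values were tested as log2(intensity + 1) with limma 3.58.1 (lmFit and eBayes, R 4.3.3) on all 6 arrays, with genotype means, no block and 3 residual degrees of freedom, and Benjamini-Hochberg adjustment over all genes at 0.05. The replicate comparison added the replicate number to the genotype means. The fitting script was tested on simulated data. The number of arrays limits the precision. Figures were drawn with matplotlib 3.10.9.

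The members, the other lists and the tests were chosen with earlier results of these data known. Lists covered further mitosis genes (75 of 79 measured), cell cycle regulators (22 of 22), DNA replication (43 of 44) and inhibitors (12 of 14). They also covered G1 cyclins, kinases and Myc (8 of 8), and markers of fibroblasts (12), macrophages (13), endothelium (7), pluripotent cells (12) and the interferon response (7 of 10). Members given on every array were, per role, the brightest and those with the largest and the smallest absolute difference between Foxd1-/- and Foxd1+/+. From other lists the gene with the smallest p there was eligible, and Nek2, Hmmr, Rrm2, Foxm1, Mybl2, E2f8, the 4 inhibitors, Col1a2 and Vim were named after their values were seen, as was Spc25. The other members are given by their difference and its SE. Alternatives were offsets of 8 and 32, averaged probe sets, brighter genes only (9969), quantile and median scaling, trend and robust eBayes, only the groups compared, the replicate number as a block or no genotype term, and each array left out in turn.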

Additional observations from a re-analysis of the deposited data

Results flagged for a closer look

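Replicate 2 minus replicate 1 had opposite signs between genotypes for 3 members. Mki67 gave 0.0451 on the log2 scale in Foxd1+/-, against -0.19 in Foxd1+/+ and -0.66 in Foxd1-/-. Top2a gave 0.0088, against -0.20 and -0.42. Cenpf gave 0.0524, against -0.17 and -0.41. The positive values are small, each is a difference of 2 single arrays, and these differences between genotypes were not tested.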

How the results depend on the processing

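Under the 10 settings other than leaving out an array, 0 of 306 differences of named genes changed sign. Many of these could not change. Brighter genes only, trend and robust eBayes, only the groups compared, the replicate block and no genotype term leave each difference as it was. Averaging probe sets can change only Top2a among the members. The count therefore says little beyond the offsets and the quantile and median scaling. Limma called 0 members between genotypes under these settings. With the replicate block, 18 members had an unadjusted p under 0.05 in Foxd1-/- against Foxd1+/+ and 13 against Foxd1+/- (3.27% and 3.15% of all genes, lower), where none did without it, and none passed adjustment. The numbers were not taken as pairing the arrays, since there are only 2 and the labels call them biological replicates without naming anything shared; replicate differences correlated across all genes at r = 0.55, 0.73 and 0.73 between genotypes. Between replicate numbers, the 9 members called became 3 with an offset of 32, 4 with no genotype term, and 21 with brighter genes only (fewer genes tested) or with trend and robust eBayes; for the others the cause was not tested.

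Leaving out each array in turn gave medians from -0.64 to 0.0157 (13 to 34 members lower, 0 to 22 at an unadjusted p under 0.05) for Foxd1-/- against Foxd1+/+. The ranges were -0.61 to 0.0311 (12 to 34, 0 to 21) against Foxd1+/-; the 22 and 21 come from fits with Foxd1-/- replicate 2 alone, the lowest array for every member, assumed to vary like the other genotypes. The range was -0.14 to 0.16 (2 to 33) for Foxd1+/- against Foxd1+/+. A fit without an array of either genotype leaves them unequal in replicate number, so this range also holds the step between numbers. Between replicate numbers 0 to 14 members and 0 to 1389 genes (1764 with all arrays) were called. The fit without Foxd1-/- replicate 2 sets Foxd1-/- replicate 1 against both numbers, while against Foxd1+/+ replicate 1 alone 33 of 34 members were lower. In that fit the Foxd1-/- difference from Foxd1+/+ turned positive for 11 named members. Their ranges were -0.63 to 0.0252 (Mki67), -0.43 to 0.19 (Cdk1), -0.47 to 0.21 (Ube2c), -0.68 to 0.0403 (Plk1), -0.66 to 0.16 (Aurka), -0.49 to 0.10 (Aurkb), -0.55 to 0.0183 (Incenp), -0.66 to 0.0649 (Mad2l1), -0.71 to 0.013 (Nuf2), -0.55 to 0.0459 (Kif23) and -0.54 to 0.036 (Ect2). For Foxd1+/- against Foxd1+/+, Ndc80 ranged from -0.41 to 0.11 and Foxd1 from -0.56 to 0.47. Signal over background is unknown for these values, which limits the dimmer members most.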
